A study of Homo sapiens with 22 samples.

Results

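Genes classed by name as hosts of small RNAs were followed through haematopoietic culture with and without ectopic MYC. Members were all rows of the deposited gene table named SNHG followed by a number, MIR followed by a name and HG, or GAS5, ZFAS1, DANCR or EPB41L4A-AS1. This gave 94 of 60240 genes, of which 32 were classed as hosts of small nucleolar RNAs (snoRNAs) and 62 as hosts of microRNAs. After a filter on low counts, 62 members were measured well enough to test, 31 of each kind, among 20115 tested genes. The name rule misses hosts with other spellings (hyphens, or a protein-coding name), and MIR142HG was not among the matched rows.

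RNA with a polyA tail was sequenced from haematopoietic progenitor cells differentiated in culture from the human embryonic stem cell line H1, which is long established. The 12 UT libraries had no doxycycline and spanned day 10 to day 20 in steps of 2 days. In the 10 DOX libraries doxycycline drove ectopic MYC, and these ran from day 12 with the same spacing and last day. Library titles in both arms begin with the same name, doxee17. Each of the 11 groups had 2 libraries, all labelled as 1 batch. No group had doxycycline without ectopic MYC, so the drug and the transgene cannot be told apart, and the labels do not give the day doxycycline was added. Nothing in the labels says that replicates came from separate cultures: the p-values below rest on the scatter among these libraries alone, and that scatter may be technical.

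snoRNAs guide chemical modification of ribosomal and spliceosomal RNA: those with boxes C and D guide 2′-O-methylation, and those with boxes H and ACA guide conversion of uridine to pseudouridine. In human cells most are cut from introns, and their hosts are either genes of the translation machinery or noncoding genes such as GAS5 and SNHG1, whose spliced exons are often removed by nonsense-mediated decay. MicroRNAs are cut from a hairpin in the host transcript by DROSHA and DGCR8, exported by XPO5, trimmed by DICER1 and loaded into Argonaute proteins, which then repress messenger RNAs that match the seed, bases 2 to 8. Libraries of polyA RNA measure the host transcript and not the mature small RNA.

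Mature microRNAs of the hosts described below are printed here 5′ to 3′ from RefSeq on GRCh38, with the seed in capitals, so that shared seeds can be seen. MIR223HG on chromosome X carries a myeloid microRNA, MIR34AHG on chromosome 1 one that p53 is known to induce, MIR210HG on chromosome 11 one known from hypoxia, and MIR503HG on chromosome X one known for slowing the cell cycle.
hsa-miR-223-3p: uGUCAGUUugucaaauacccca
hsa-miR-34a-5p: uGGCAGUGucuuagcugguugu
hsa-miR-210-3p: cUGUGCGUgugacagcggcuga
hsa-miR-503-5p: uAGCAGCGggaacaguucugcag

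MIR17HG on chromosome 13 carries 6 hairpins, the cluster known as a direct target of MYC, and its main products fall into a few seed groups. miR-17-5p and miR-20a-5p share the seed AAAGUGC, and miR-19a-3p and miR-19b-3p share GUGCAAA.
hsa-miR-17-5p: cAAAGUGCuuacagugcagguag
hsa-miR-20a-5p: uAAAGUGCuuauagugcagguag
hsa-miR-19a-3p: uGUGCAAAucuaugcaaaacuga
hsa-miR-19b-3p: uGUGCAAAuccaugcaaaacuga
hsa-miR-18a-5p: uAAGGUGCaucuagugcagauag
hsa-miR-92a-3p: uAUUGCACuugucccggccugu

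MIR100HG on chromosome 11, MIR99AHG on chromosome 21 and MIRLET7BHG on chromosome 22 hold members of the let-7, miR-99 and miR-125 families, which are known for restraining proliferation or for their roles in haematopoietic differentiation. The let-7 seed GAGGUAG occurs in 5 mature microRNAs of MIR100HG, MIR99AHG, MIRLET7BHG and MIR4458HG. The seed ACCCGUA is shared by miR-100-5p from MIR100HG and miR-99a-5p from MIR99AHG, and both hosts also carry miR-125b-5p.
hsa-let-7a-5p: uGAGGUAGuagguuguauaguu
hsa-let-7b-5p: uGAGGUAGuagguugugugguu
hsa-let-7c-5p: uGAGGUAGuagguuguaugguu
hsa-miR-100-5p: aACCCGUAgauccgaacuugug
hsa-miR-99a-5p: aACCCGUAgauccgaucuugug
hsa-miR-125b-5p: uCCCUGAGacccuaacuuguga

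A further set comes from hosts that were lower with DOX. MIR222HG on chromosome X yields miR-221-3p and miR-222-3p, which share the seed GCUACAU and are known to repress KIT and CDKN1B. MIR193BHG on chromosome 16 yields miR-193b-3p, MIR29B2CHG on chromosome 1 yields 2 microRNAs with the seed AGCACCA, and MIR22HG on chromosome 17 yields miR-22-3p.
hsa-miR-221-3p: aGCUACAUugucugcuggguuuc
hsa-miR-222-3p: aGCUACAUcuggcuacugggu
hsa-miR-193b-3p: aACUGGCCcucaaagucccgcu
hsa-miR-29b-3p: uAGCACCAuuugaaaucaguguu
hsa-miR-29c-3p: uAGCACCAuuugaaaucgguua
hsa-miR-22-3p: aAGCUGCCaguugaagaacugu

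The snoRNAs inside the hosts are shown by 4 box C/D examples read from GRCh38 at their annotated positions, 5′ to 3′, with box C (TGATGA) and box D (CTGA) in capitals. SNORD12C lies in ZFAS1 (chr20:49278940-49279028, plus strand), SNORD27 and SNORD25 lie in SNHG1 (chr11:62855012-62855083 and chr11:62855564-62855632, minus strand), and SNORD50B lies in SNHG5 (chr6:85677589-85677658, minus strand). GENCODE 29 placed at least 1 snoRNA gene inside 30 of the 32 snoRNA hosts, 144 in all, of which 84 were in SNHG14. A whole microRNA hairpin lay inside 47 of the 62 microRNA hosts, 23 of the 31 tested. Mature microRNAs lay inside at least 28 of those 31.
SNORD12C: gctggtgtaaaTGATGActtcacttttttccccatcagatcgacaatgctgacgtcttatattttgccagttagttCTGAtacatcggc
SNORD27: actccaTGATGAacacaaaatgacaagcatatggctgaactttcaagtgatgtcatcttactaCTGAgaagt
SNORD25: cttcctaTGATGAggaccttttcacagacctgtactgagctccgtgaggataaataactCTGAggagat
SNORD50B: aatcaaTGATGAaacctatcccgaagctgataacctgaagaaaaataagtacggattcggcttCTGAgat

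Ribosomal protein messages, whose levels are given below beside the hosts, begin with a C followed by a run of C and T. That motif, a C at the annotated start followed by at least 4 C or T, was searched on the transcribed strand of RefSeq promoters. It began exactly at the start in 7 of 28 promoter windows of snoRNA hosts (25.0%), in 2 of 60 of microRNA hosts (3.33%), in 47 of 80 of cytosolic ribosomal proteins (58.8%) and in 4.07% of all 35116 windows. When it could begin up to 5 bases either side of the start, the 2 kinds of host lay closer together. The counts were then 13 of 28 (46.4%), 22 of 60 (36.7%) and 58 of 80 (72.5%), against 21.1% of all windows. The 4 windows below (ZFAS1 chr20:49278622-49278671 and SNHG4 chr5:139274081-139274130 on the plus strand, SNHG12 chr1:28581844-28581893 and SNHG5 chr6:85678704-85678753 on the minus strand, GRCh38) run from 20 bases before to 30 bases from the annotated start, with the run of C and T in capitals. The letters CACGTG, which are the same on both strands and form the E-box bound by MYC, were present between 250 bases before and 50 after the start in 2 of the 28 windows of snoRNA hosts (7.14%), in 1 of the 60 of microRNA hosts (1.67%) and in 7.26% of all windows.
ZFAS1: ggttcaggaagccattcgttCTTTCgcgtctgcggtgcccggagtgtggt
SNHG4: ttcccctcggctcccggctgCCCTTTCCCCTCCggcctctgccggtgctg
SNHG12: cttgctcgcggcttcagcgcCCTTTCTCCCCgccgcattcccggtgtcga
SNHG5: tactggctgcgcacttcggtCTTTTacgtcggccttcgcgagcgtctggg

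Libraries held 24730502 to 53508548 estimated counts. MYC was higher in DOX when days 12 to 20 were averaged, with a log2 fold change of 0.83 (adjusted p = 4.3e-06, SE 0.11). The daily difference shrank to 0.31 on day 20 (adjusted p = 0.39). Endogenous and ectopic copies are not separated in the MYC row, and how much of the ectopic copy is counted there is not known. The share of counts from mitochondrially encoded genes went from 8.92% on UT day 10 to 72.7% on UT day 20, and was 57.0% on DOX day 20. Summed progenitor markers (CD34, PTPRC, SPN, RUNX1, GATA2 and KIT) summed to 743 to 1200 CPM (counts scaled to a common library size with TMM factors) in the libraries from day 12 on. SPN alone ranged from 417 to 869 CPM over the 22 libraries, whereas from UT day 10 to UT day 20 CD34 went from 109 to 5.05 CPM, KIT from 96.3 to 4.66 and GATA2 from 54.9 to 144. Summed eosinophil and mast cell markers were at most 10.3 CPM on day 10. From day 12 on, their largest sum in any library was 30965 CPM in UT and 10446 CPM in DOX. The UT maximum was not the day-20 level, where PRG2 was at 15987 CPM and EPX at 4378. The second UT day-16 library stood apart in fibroblast markers, with 513 CPM against at most 41.3 CPM in any other library. Without it the averaged comparison described below called 23 members higher and 18 lower. In bulk RNA, a change in the share of cells of a type and a change in RNA per cell cannot be told apart.

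Both kinds of host were present at very different levels. snoRNA hosts together made up 0.152% to 0.314% of the counts of nuclear genes in each library. On UT day 10 their share was 0.212% ± 0.0017 (SD, n = 2) and on UT day 20 it was 0.152% ± 0.0012. In DOX it was 0.242% ± 0.0018 on day 12 and 0.256% ± 0.0081 on day 20, and it was above UT on each shared day. microRNA hosts together went from 0.0182% ± 0.0027 on UT day 10 to 0.0453% ± 0.0045 on UT day 20, against 0.0154% on DOX day 12 and 0.0287% ± 0.0011 on DOX day 20. The shares of the 2 kinds thus stood on opposite sides in the arms from day 12 on, snoRNA hosts above and microRNA hosts below in DOX. The share of microRNA hosts was mostly that of MIR223HG, which had a mean of 119.8 CPM against 9.09 for the next, MIR210HG. It therefore says little about the other microRNA hosts.

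**Figure D1:**
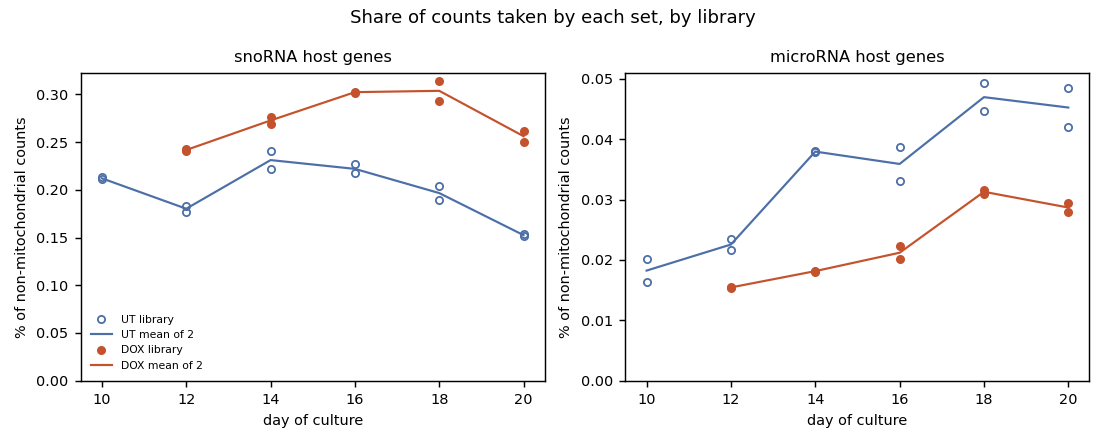
Share of the counts of nuclear genes (percent, y axis) taken by the 32 snoRNA hosts and the 62 microRNA hosts, by day (x axis) and arm, with 1 point per library and lines through the group means. On UT day 20 snoRNA hosts took 0.152% and on DOX day 20 they took 0.256%, while microRNA hosts took 0.0453% and 0.0287%. Most of the microRNA host share came from MIR223HG.

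SNHG29, which holds SNORD49A, SNORD49B and SNORD65, was the most abundant member with a mean of 348 CPM, followed by MIR223HG at 119.8, SNHG3 at 112, SNHG6 at 102 and GAS5 at 100.7 CPM. Scaled by exon length, the level per kilobase was 92.5 CPM for SNHG29, 81.8 for SNHG6, 66.0 for MIR223HG, 51.4 for SNHG8 and 27.7 for GAS5. MIR223HG was the exception among microRNA hosts: the next, MIR503HG, stood at 4.20 CPM per kilobase.

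When days 12 to 20 were averaged, most snoRNA hosts were higher in DOX and most microRNA hosts lower. Of the 31 tested snoRNA hosts, 20 rose, 2 fell and 9 were not called, with a median log2 fold change of 0.26, against 29.8% of all tested genes called higher, 23.0% called lower and a median of 0.08. Of the 31 tested microRNA hosts, 5 rose, 16 fell and 10 were not called, with a median of -0.54. The order of these medians did not depend on the scaling, but their distance from 0 did: with library sizes alone, which ignores composition, the median of all genes moved to 0.60, that of snoRNA hosts to 0.80 with 24 higher and 0 lower, and that of microRNA hosts to 0.00 with 10 higher and 7 lower. Of all tested genes, 11581 were then higher and 1609 lower, against 6002 and 4633 with TMM scaling. Directions are therefore relative to the bulk of genes. Of the called members, 3 rose and 9 fell by at least 2-fold, the former being MIR34AHG, MIR202HG and SNHG21, against 7.03% and 7.73% of all genes.

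**Figure D2:**
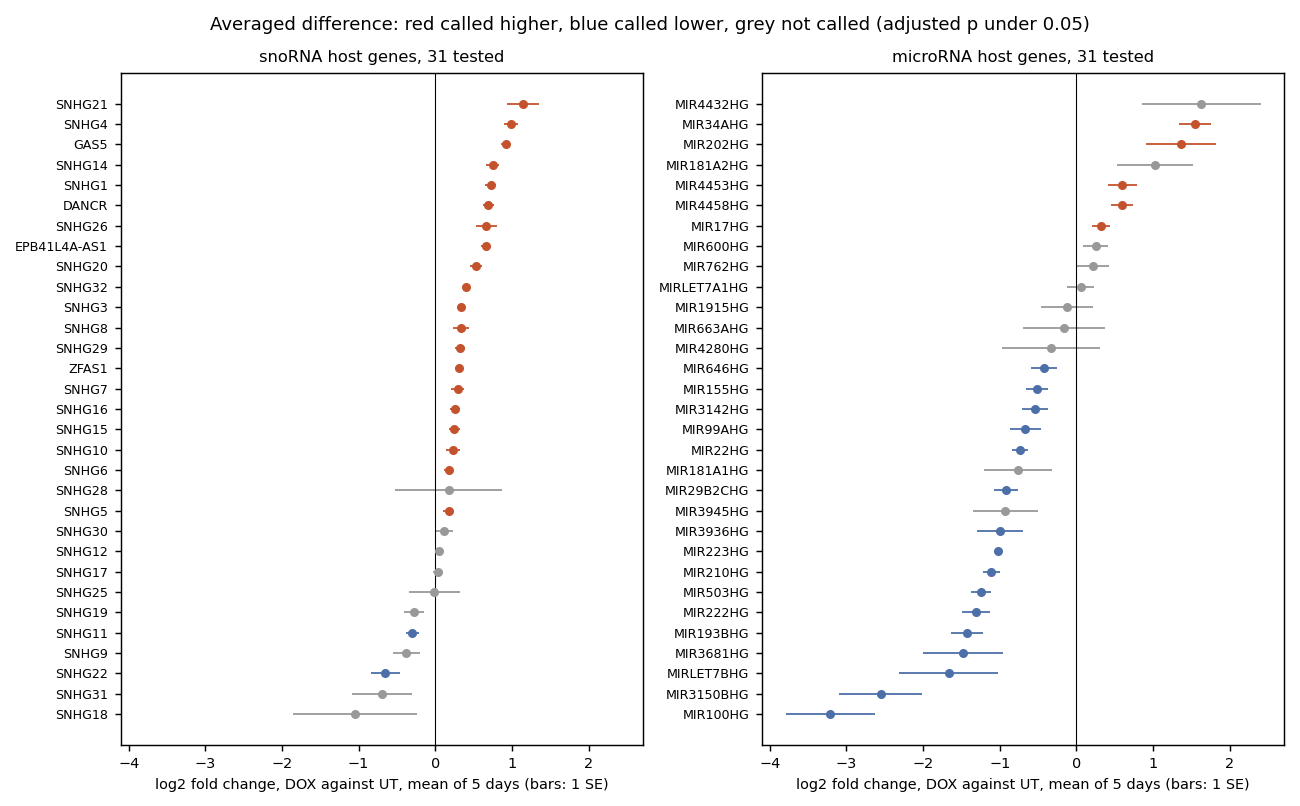
Log2 fold change of DOX against UT averaged over days 12 to 20 (x axis) for each of the 62 tested members (y axis), with bars of 1 standard error and the 2 kinds of host apart. Values run from -3.21 for MIR100HG to 1.55 for MIR34AHG, and called members are marked.

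GAS5 (chromosome 1, 173863900 to 173868882, minus strand), a noncoding RNA that accumulates in growth-arrested cells and binds the glucocorticoid receptor, was the member called higher on all 5 days. In UT it declined from 105 and 112 CPM on day 10, through 86.6 and 87.6 on day 12, 85.4 and 104 on day 14, 74.6 and 68.1 on day 16, and 53.8 and 54.7 on day 18, to 42.7 and 45.1 on day 20. In DOX it stood at 139 and 136, 149 and 139.9, 146 and 160.2, 137 and 108, and 94.6 and 85.4 CPM on the same 5 shared days. The arms did not overlap on any day. Averaged over days, the log2 fold change was 0.92 (adjusted p = 2.9e-10, SE 0.06), a 1.89-fold difference, with daily values of 0.66, 0.61, 1.10, 1.18 and 1.04. ZBTB37, which overlaps GAS5 on the other strand, differed by 0.34 at 13.3 CPM, and the strand setting behind the counts is not given in the sources used here.

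SNHG1 (chromosome 11, 62851988 to 62855914, minus strand), the host of SNORD25 to SNORD28 among 7 annotated snoRNA genes, followed the same course. UT libraries went from 86.8 and 89.9 CPM on day 10 to 74.5 and 68.7 on day 12, 50.9 and 40.8 on day 16 and 28.4 and 29.2 on day 20. DOX libraries held 93.6 and 96.3 CPM on day 12, 108 and 109 on day 16 and 56.4 and 42.7 on day 20. Both DOX libraries were above both UT libraries on each of the 5 days, and the averaged log2 fold change was 0.72 (adjusted p = 1.3e-07, SE 0.07).

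SNHG4 (chromosome 5, 139274102 to 139284899, plus strand), which carries SNORA74A, showed the largest averaged rise among snoRNA hosts above 10 CPM. In UT it was at 49.4 and 49.5 CPM on day 10, 28.5 and 24.2 on day 16, and 13.6 and 14.5 on day 20, and in DOX at 56.8 and 55.3 on day 12, 79.1 and 70.8 on day 16, and 30.8 and 30.9 on day 20. Averaged over days it was 1.98-fold higher in DOX, or 0.99 on the log2 scale (adjusted p = 7e-08, SE 0.09), and the arms were apart on all 5 days. MATR3, which overlaps SNHG4 on the same strand, had a log2 difference of 0.81 at 9.0 CPM (adjusted p = 0.053).

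DANCR, a noncoding RNA known for keeping progenitors undifferentiated and the host of SNORA26, was at 28.8 and 26.6 CPM on UT day 12 and 42.9 and 41.3 on DOX day 12. By day 20 it was at 36.4 and 27 CPM in UT and 77.4 and 61.9 in DOX. Averaged over the days, the log2 fold change was 0.69 (adjusted p = 1.6e-07, SE 0.07), and DANCR was one of 6 members, with GAS5, SNHG1, SNHG4, SNHG14 and SNHG32, whose DOX libraries lay above both UT libraries on every shared day.

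SNHG14 (chromosome 15, 24978583 to 25419462, plus strand), the long imprinted transcript of the Prader-Willi region, fell in UT from 169.6 and 156 CPM on day 10 to 54.7 and 52.7 on day 14 and stayed at 41.1 to 69.1 CPM after that. In DOX it was at 132 and 139 CPM on day 12, 111 and 126 on day 14, and 83.0 and 88.0 on day 20. The averaged log2 fold change was 0.75 (adjusted p = 6.5e-07, SE 0.08), and SNHG14 was the highest of the called members on day 14 at 1.14. SNRPN, on the same strand within it, differed by 0.33.

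SNHG29, SNHG3, SNHG6 and SNHG16 are, with GAS5 and SNHG14, the 6 most abundant snoRNA hosts, and their averaged log2 fold changes lay below the 0.92 of GAS5 and the 0.75 of SNHG14. SNHG29 ranged from 256 to 399.9 CPM in the UT libraries of days 12 to 20 and from 281 to 462 CPM in DOX, and the arms overlapped on days 18 and 20. Its averaged log2 fold change was 0.32 (adjusted p = 0.00067, SE 0.07). SNHG3, the host of SNORA73A and SNORA73B, differed by 0.33 (SE 0.05). RCC1, which overlaps SNHG3 on the same strand, differed by 0.74 at a mean of 50.3 CPM, and reads of the 2 may have been split by the counting. SNHG16, the host of SNORD1A to SNORD1C, differed by 0.26 (SE 0.06), and SNHG6, the host of SNORD87, by 0.17 (SE 0.06), which was not called with DESeq2 size factors (adjusted p = 0.068). ZFAS1 (chromosome 20, 49278178 to 49295738, plus strand), transcribed opposite the start of ZNFX1, held 45.6 and 45.9 CPM on UT day 12 and 63.0 and 61.1 on DOX day 12, and its averaged log2 fold change was 0.31 (adjusted p = 3.1e-05, SE 0.05). ZNFX1 itself differed by -0.29, opposite in sign to ZFAS1.

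EPB41L4A-AS1, the host of SNORA13, was named after its values were seen, because its difference grew. It was at 16.8 and 16.9 CPM in UT and 26.3 and 26.1 in DOX on day 12, and at 23.0 and 17.8 in UT and 50.8 and 47.5 in DOX on day 20. The averaged log2 fold change was 0.66 (adjusted p = 3.7e-08, SE 0.06), with no overlap on these days.

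SNHG21 (chromosome 15, 82750564 to 82757206, plus strand), which holds SCARNA15, a guide for modification in Cajal bodies, was low throughout and nearly absent at the end of the UT course. In UT it held 1.98 and 1.87 CPM on day 10, 2.44 and 1.52 on day 16, 1.24 and 1.02 on day 18, and 0.198 and 0 on day 20. In DOX it held 2.14 and 1.57 on day 12, 2.62 and 2.55 on day 18, and 1.64 and 1.42 on day 20. On day 20 this was 64 counts in DOX against 2 in UT, a ratio of 16.7 with an exact 95% interval of 4.45 to 141 that covers counting error only. The averaged log2 fold change of 1.14 (adjusted p = 0.00014, SE 0.21) rested on that day: without day 20 it was 0.43 (adjusted p = 0.062), and without the first UT day-20 library it was 2.17. AC105339.2, which overlaps SNHG21 on the same strand at a mean of 0.851 CPM, went the opposite way on day 20, at -2.97. Its averaged log2 difference was 1.38 (adjusted p = 0.079). Reads of the 2 may have been split by the counting, which was not tested.

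The 2 snoRNA hosts that fell were SNHG22, named because they were only 2, and SNHG11. SNHG22, which holds SCARNA17, was at 7.39 and 8.21 CPM on UT day 18 and 2.69 and 3.38 on DOX day 18, with an averaged log2 fold change of -0.65 (adjusted p = 0.0064, SE 0.19). SNHG11, the host of SNORA60 and SNORA71E, was at 8.35 and 10.7 CPM on UT day 14 and 5.50 and 5.17 on DOX day 14, but on day 20 the order was the other way, at 7.81 and 6.24 CPM in UT and 10.7 and 12.4 in DOX. Its averaged log2 fold change was -0.30 (adjusted p = 0.0055, SE 0.08).

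**Figure D3:**
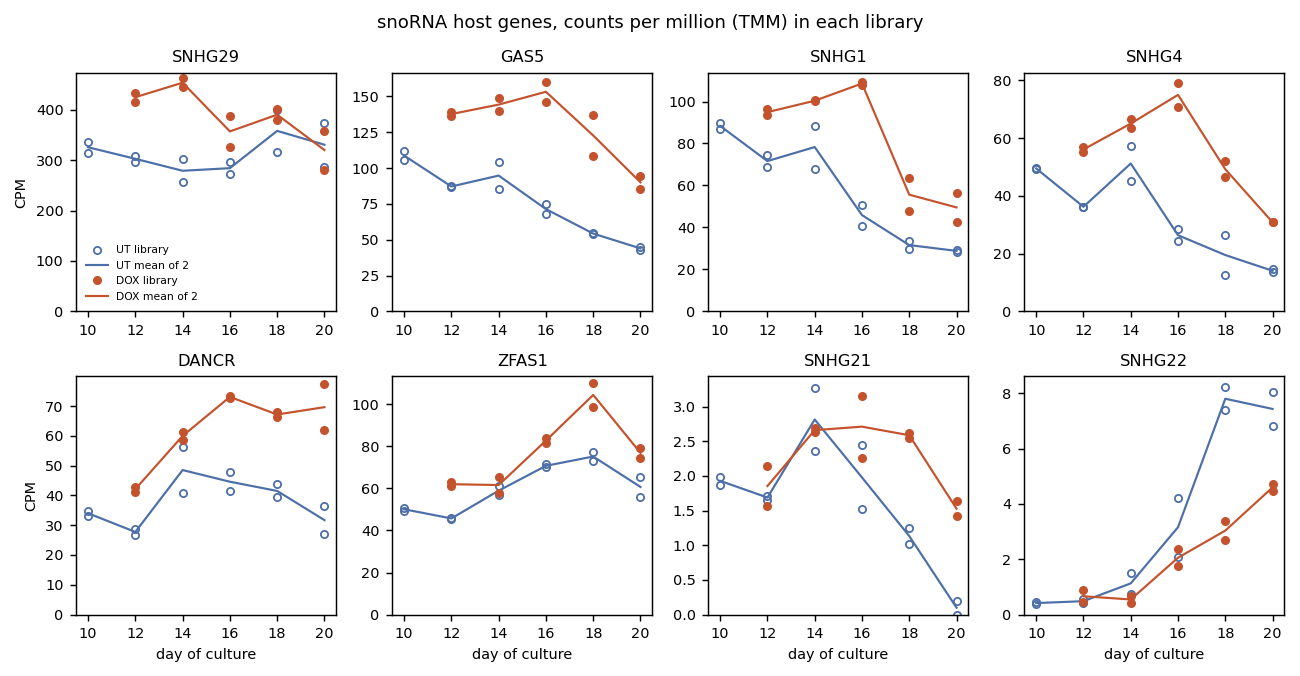
CPM (y axis of each panel, own scale) of SNHG29, GAS5, SNHG1, SNHG4, DANCR, ZFAS1, SNHG21 and SNHG22 by day (x axis) and arm, with 1 point per library and lines through the group means. GAS5 in UT falls from 112 CPM at most on day 10 to 45.1 at most on day 20 and stays at 85.4 or more in DOX, while SNHG22 rises in both arms.

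Among microRNA hosts, MIR223HG (chromosome X, 66015461 to 66020422, plus strand) gave the smallest adjusted p. miR-223 is known from granulocytes and their precursors. In UT the host rose from 68.4 and 56.0 CPM on day 10 through 79.7 and 73.4, 131 and 128, 161 and 138, and 243 and 232, to 259.8 and 249.97 CPM on day 20. In DOX it was at 47.9 and 49.6, 56.7 and 56.2, 77.6 and 70.6, 111 and 114, and 111 and 119 CPM. DOX was lower on all 5 days without overlap, by 2.02-fold on average (log2 fold change -1.02, adjusted p = 2.9e-11, SE 0.05). Daily values were -0.65, -1.20, -1.01, -1.08 and -1.15, all called, although the day-12 call was lost without the first UT day-12 library (adjusted p = 0.11). Neutrophil markers (MPO, ELANE and AZU1) summed to 1046 to 2371 CPM in UT and 637 to 1281 in DOX from day 12, and eosinophil and mast cell markers to 641 to 30965 and 198 to 10446 CPM. Of the neutrophil markers, MPO carried most of the sum, at 443 to 2051 CPM over the 22 libraries. AZU1 reached 351 CPM and ELANE 6.84. Of the eosinophil and mast cell markers, PRG2 and EPX carried the sum and TPSAB1 was at 0 in 6 libraries. Their part in the result was not tested.

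MIR503HG, MIR222HG and MIR3150BHG were the other members with both DOX libraries below both UT libraries on every shared day. MIR503HG was at 5.21 and 4.58 CPM on UT day 12 and 12.2 and 11.3 on UT day 16, against 2.71 and 2.71 and 2.73 and 3.76 in DOX. Its averaged difference was 2.37-fold lower in DOX (log2 fold change -1.25, adjusted p = 1.8e-07, SE 0.13). MIR222HG (chromosome X, 45745211 to 45770274, minus strand), the host of the KIT-targeting pair shown above, was at 2.49 and 4.46 CPM on UT day 14 and 0.751 and 0.724 on DOX day 14, and was 2.48-fold lower on average (log2 fold change -1.31, adjusted p = 6.5e-06, SE 0.18). MIR3150BHG stayed at or below 0.398 CPM in DOX and reached 2.10 CPM in UT, with an averaged log2 fold change of -2.55 (SE 0.54).

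MIR193BHG (chromosome 16, 14301389 to 14331067, plus strand), whose hairpins are MIR193B and MIR365A, came up later in DOX than in UT. In UT it went from 0.0448 and 0.0193 CPM on day 10 to 0.719 and 0.935 on day 14 and 4.61 and 5.43 on day 16, where DOX held 0.177 and 0.128 and then 0.390 and 0.748. On day 20 the arms overlapped, at 4.55 and 7.61 CPM in UT and 6.10 and 5.78 in DOX. The daily log2 fold changes were -2.42 on day 14 and -3.14 on day 16, and the averaged value was -1.43 (adjusted p = 1.2e-05, SE 0.21).

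The hosts of let-7, miR-99 and miR-125 did not behave as one. MIRLET7A1HG, named for let-7a, had a mean of 4.24 CPM and was not called, with an averaged log2 fold change of 0.05 (adjusted p = 0.86, SE 0.18). None of the microRNAs with the let-7 seed counted above lay inside its annotated span. MIR100HG (chromosome 11, 122028327 to 122556721, minus strand) was at or below 0.0579 CPM on UT days 10 and 12, then at 0.251 and 0.184 on day 14, 0.444 and 0.718 on day 16, 1.24 and 1.28 on day 18, and 1.09 and 0.941 on day 20. No DOX library exceeded 0.105 CPM. On day 16 this was 2 counts in DOX against 28 in UT, a 28.1-fold lower level with an exact 95% counting interval of 7.09 to 244, and on day 20 it was 2 against 22 counts, 21.0-fold lower (5.17 to 184). The averaged log2 fold change was -3.21 (adjusted p = 0.00014, SE 0.58), a fitted value that depends on these few counts, and the call was lost without the second UT day-12 library. Without the UT day-16 library high in fibroblast markers the day-16 log2 fold change was -4.22, against -4.62 with it.

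MIR99AHG (chromosome 21, 15928296 to 16645065, plus strand), with the same seed families, was far higher in both arms. It was at 4.92 and 4.55 CPM on UT day 16 and 1.17 and 1.30 on DOX day 16, but at 5.84 and 7.87 on UT day 20 and 5.04 and 8.51 on DOX day 20. The averaged log2 fold change was -0.67 (adjusted p = 0.0091, SE 0.20), and without day 16 it was -0.35 (adjusted p = 0.22). MIRLET7BHG (chromosome 22, 46053869 to 46113928, plus strand), the host of let-7a-3 and let-7b, went from 0 and 0.0193 CPM on UT day 10 to 0.890 and 1.28 on UT day 20, and to 0.486 and 0.578 on DOX day 20. Its averaged log2 fold change of -1.67 (adjusted p = 0.036, SE 0.64) was lost in 11 of the 22 fits that left out 1 library, so it rests on few counts.

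MIR210HG (chromosome 11, 565660 to 568457, minus strand) did not move in a straight course. In UT it stood at 5.75 and 5.06 CPM on day 10, 5.62 and 5.80 on day 12, 16.5 and 16.3 on day 14, 3.19 and 1.96 on day 16, 21.0 and 14.0 on day 18, and 24.9 and 23.1 on day 20. In DOX it stood at 6.40 and 5.71, 8.30 and 7.06, 1.62 and 1.99, 9.54 and 11.1, and 1.77 and 3.26 CPM. Replicates lay close within each day while the days alternated, and both arms were low on day 16. DOX was 2.16-fold lower on average (log2 fold change -1.11, adjusted p = 2.2e-07, SE 0.12), with -3.27 on day 20.

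MIR22HG, whose microRNA is known from myeloid cells, was at 8.69 and 6.86 CPM on UT day 14 and 3.16 and 3.14 on DOX day 14, and was 1.67-fold lower on average (log2 fold change -0.74, adjusted p = 1.1e-05, SE 0.11), although on day 18 the arms overlapped at 11.9 and 8.37 against 11.2 and 9.57 CPM. MIR29B2CHG fell by 0.92 on the log2 scale (SE 0.15), most on day 14 with 8.27 and 8.71 CPM in UT and 2.83 and 2.34 in DOX. MIR155HG, known from activated immune cells, ranged from 1.53 to 3.01 CPM in UT from day 12 and from 1.11 to 1.77 in DOX, and its log2 fold change was -0.52 (adjusted p = 0.006, SE 0.15). With library sizes alone MIR155HG was at 0.02 (adjusted p = 0.96). MIR3142HG, which also holds the hairpin of miR-146a, was at 16.5 and 21.8 CPM on UT day 18 and 5.17 and 5.08 on DOX day 18, and without day 18 its averaged log2 fold change of -0.54 became -0.19 (adjusted p = 0.45). MIR3681HG, at -1.48 (SE 0.52), lost its call in 6 of the fits without 1 library. MIR181A1HG, a host of miR-181a and miR-181b, was at -0.76 (adjusted p = 0.16, SE 0.44) and was not called. MIR181A2HG, which holds the same pair, had the opposite sign at 1.03 (adjusted p = 0.093, SE 0.50) and was not called either. Its mean was 0.187 CPM.

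The 5 microRNA hosts that rose were MIR34AHG, MIR202HG, MIR4453HG, MIR4458HG and MIR17HG. MIR34AHG (chromosome 1, 9148011 to 9198906, minus strand) declined in UT from 3.19 and 2.05 CPM on day 10, through 2.41 and 3.81 on day 14 and 1.15 and 1.24 on day 16, to 0.692 and 0.428 on day 20. In DOX it climbed from 1.77 and 2.01 CPM on day 12, through 2.09 and 2.06 on day 14, 3.38 and 4.23 on day 16 and 4.63 and 7.66 on day 18, to 5.84 and 5.51 on day 20. The arms overlapped on day 12, DOX was the lower on day 14, and DOX was the higher without overlap from day 16 on. The averaged difference was 2.93-fold (log2 fold change 1.55, adjusted p = 4.6e-06, SE 0.21), and on days 12 and 14 alone it was -0.28 (adjusted p = 0.54).

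MIR17HG (chromosome 13, 91347820 to 91354579, plus strand), the host of the miR-17 to miR-92 cluster, was called on day 20 and on no other single day. On day 12 it was at 2.98 and 2.75 CPM in UT and 3.26 and 3.15 in DOX, and on day 18 at 5.21 and 7.35 in UT and 6.28 and 6.66 in DOX. On day 20 UT had 1.19 and 1.54 CPM and DOX 4.47 and 3.83. The averaged log2 fold change was 0.33 (adjusted p = 0.026, SE 0.12), on day 20 it was 1.60 (adjusted p = 0.00091, SE 0.31), and without day 20 the average was 0.01. MIR202HG, known from gonads, reached 1.37 and 1.05 CPM on DOX day 20 against 0.198 and 0 on UT day 20, which was 51 against 2 counts, a ratio of 13.3 with an exact 95% counting interval of 3.51 to 113. Its averaged log2 fold change was 1.36 (adjusted p = 0.019, SE 0.46), and that call was lost without the first DOX day-12 library (adjusted p = 0.074). MIR4453HG and MIR4458HG rose by 0.60 and 0.59.

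**Figure D4:**
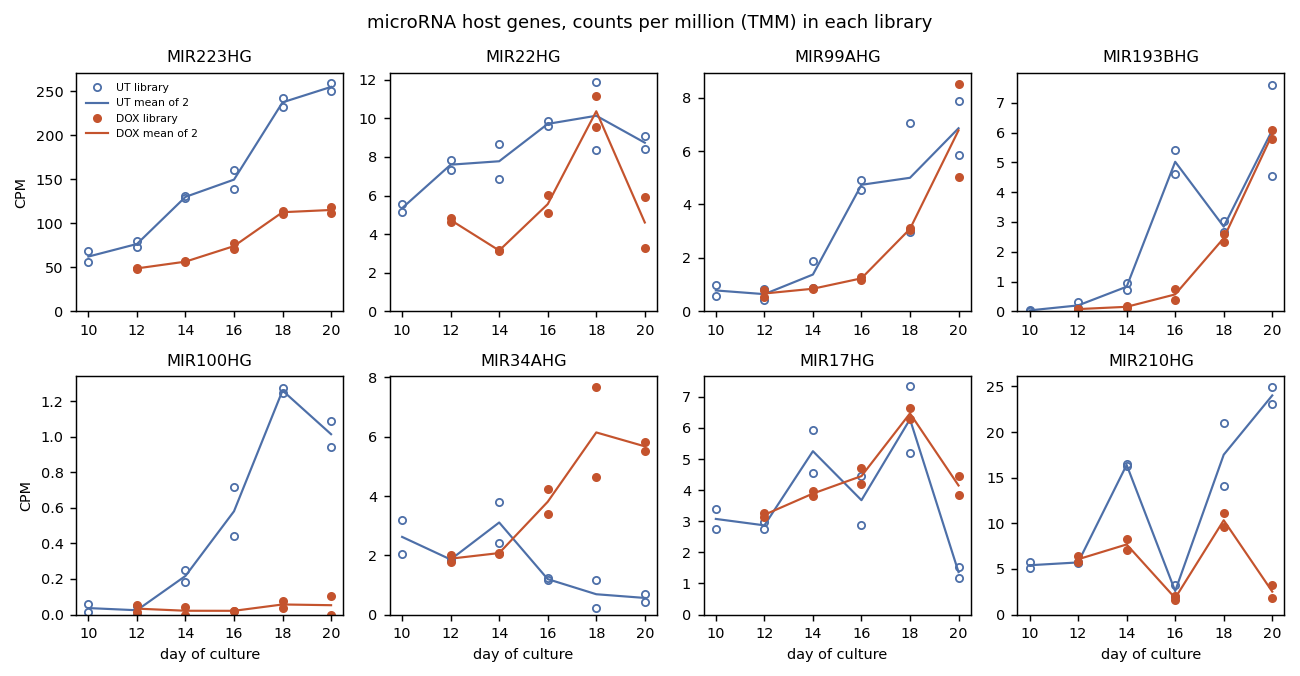
CPM (y axis of each panel, own scale) of MIR223HG, MIR22HG, MIR99AHG, MIR193BHG, MIR100HG, MIR34AHG, MIR17HG and MIR210HG by day (x axis) and arm, with 1 point per library and lines through the group means. MIR223HG rises to 259.8 CPM in UT and to 119 in DOX, MIR34AHG runs in opposite directions in the arms, and MIR100HG stays at or below 0.105 CPM in DOX.

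The number of snoRNA hosts called higher in DOX was largest on day 20, and that of microRNA hosts called lower on day 16. That order depends on the fit: with only the groups compared, 18 snoRNA hosts were higher on day 12 and 6 on day 20, and with library sizes alone 7 microRNA hosts were lower on day 14 and 3 on day 16. On day 12, 5 snoRNA hosts rose (GAS5, EPB41L4A-AS1, DANCR, SNHG32 and ZFAS1) and 1 microRNA host fell (MIR223HG), against 0.845% of all genes called higher and 2.26% lower. On day 14, 3 snoRNA hosts rose (SNHG14, SNHG29 and GAS5), 1 fell (SNHG11) and 7 microRNA hosts fell, against 15.3% and 11.7% of all genes. On day 16, 8 snoRNA hosts rose and 3 fell (SNHG9, SNHG19 and SNHG12), and 1 microRNA host rose (MIR34AHG) and 12 fell, against 21.2% and 18.7%. On day 18, 12 snoRNA hosts rose and 1 fell (SNHG22), and 3 microRNA hosts rose and 6 fell, against 19.8% and 16.0%. On day 20, 20 snoRNA hosts rose and 0 fell, and 4 microRNA hosts rose and 4 fell, against 15.9% and 11.9%. The 4 microRNA hosts that still fell on day 20 were MIR100HG, MIR210HG, MIR223HG and MIR22HG.

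**Figure D5:**
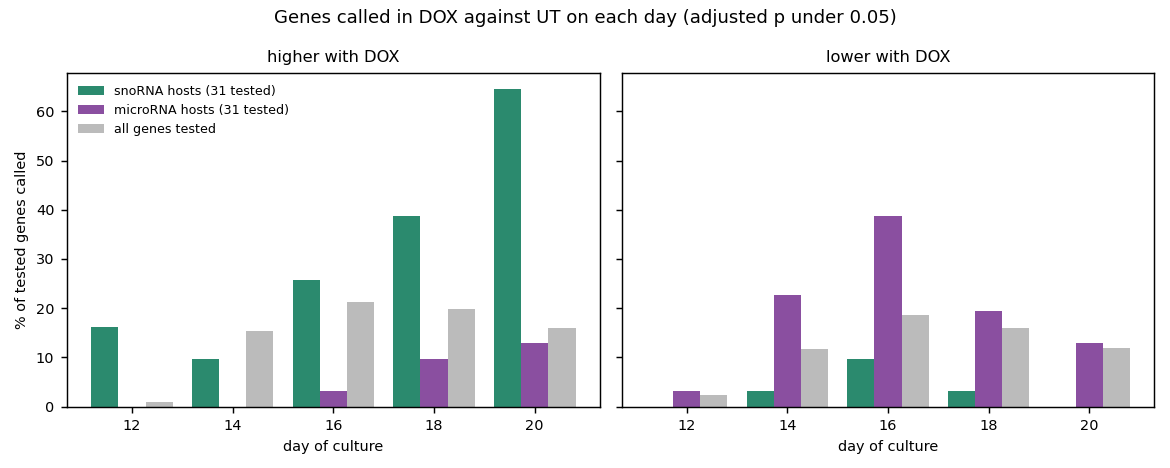
Percent of tested genes called higher and lower in DOX against UT (y axis) on each day (x axis) for the 31 snoRNA hosts, the 31 microRNA hosts and all 20115 genes. On day 20, 20 of 31 snoRNA hosts were higher against 15.9% of all genes, and the most microRNA hosts lower, 12 of 31, were on day 16.

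Median log2 fold changes were 0.44, -0.07, 0.23, 0.37 and 0.59 for snoRNA hosts and -0.27, -0.68, -0.68, -0.27 and -0.09 for microRNA hosts on days 12, 14, 16, 18 and 20, while the medians of all genes lay between -0.01 and 0.08. With library sizes alone the medians of microRNA hosts on days 16 and 18 turned to 0.26 and 0.64, with all genes at 0.93 and 0.98. The day-12 calls rest on 1 library more than the others do: without the first UT day-12 library 0 members were called higher or lower on that day, and without the second UT day-20 library 14 members rather than 24 rose on day 20.

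Many members differed between days within an arm, about as often as genes in general did in UT. Across the 6 UT days 47 of the 62 differed on some day (26 snoRNA and 21 microRNA hosts), against 72.8% of all genes, and across the 5 DOX days 44 differed (24 and 20), against 59.8%. From day 10 to day 20 in UT, 13 snoRNA hosts rose and 7 fell, and 19 microRNA hosts rose and 3 fell, against 28.1% of all genes higher and 34.2% lower. Medians were 0.28 for snoRNA hosts and 1.45 for microRNA hosts, or 1.31 with the 2 microRNA hosts that had no count in 1 of the groups placed at their bound, with all genes at -0.24. With library sizes alone all genes moved to -2.41, snoRNA hosts to -1.90 and microRNA hosts to -0.72, with 6 members higher and 36 lower, so that only the order of the 3 medians was shared. The UT day-10 and day-20 groups also differ in mitochondrial share, 8.92% against 72.7%, and in CD34, which went from 109 to 5.05 CPM. Their part in these changes was not tested.

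Several of the snoRNA hosts described above fell in UT. SNHG4 fell by 1.82 on the log2 scale, SNHG14 and SNHG1 both by 1.62, GAS5 by 1.31 and SNHG20 by 0.76, while SNHG21 dropped by 4.34 in the fit, from 230 counts to 2 (21.1-fold lower, exact 95% counting interval 5.78 to 175). Others went the opposite way in the same libraries. SNHG6 rose by 1.44, from 41.9 and 47.8 CPM to 126 and 117, SNHG16 by 0.91, from 47.9 and 53.8 to 82.3 and 108, and SNHG22 by 4.15, from 0.463 and 0.367 to 6.82 and 8.04 CPM. These comparisons share UT day-20 libraries with the DOX comparison of that day, so they are not independent of it.

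microRNA hosts rose more in UT. MIR193BHG had a log2 fold change of 7.39 (adjusted p = 5e-09, SE 0.60), MIR3945HG one of 7.38, from 1 count to 40 (ratio 218, exact 95% counting interval 36.9 to 8822), MIRLET7BHG one of 6.56, from 1 count to 24 (ratio 131, 21.3 to 5378), and MIR3150BHG one of 5.84, from 3 counts to 34 (ratio 61.8, 19.4 to 314). Among better measured hosts, MIR99AHG rose by 3.12, MIR210HG by 2.15 and MIR223HG by 2.03 (SE 0.12). MIR34AHG fell by 2.24, MIR4453HG by 2.11, from 3.63 and 3.47 CPM to 0.692 and 0.941, and MIR17HG by 1.17.

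In DOX from day 12 to day 20, 19 snoRNA hosts rose and 6 fell, and 14 microRNA hosts rose and 3 fell, against 26.7% of all genes higher and 29.7% lower, with medians of 0.73, 0.98 and -0.08 for the 2 kinds and all genes. With library sizes alone these medians were -0.45, -0.21 and -1.26. SNHG1 fell by 0.94 and GAS5 by 0.61, and SNHG6 rose by 1.45, SNHG16 by 1.26 and DANCR by 0.73. MIR193BHG rose by 6.23 (SE 0.53), MIR202HG by 4.54, MIR99AHG by 3.33 and MIR223HG by 1.24. MIR663AHG had a log2 fold change of 6.14, from 3 counts to 72 (ratio 83.3, exact 95% counting interval 27.4 to 413), but its DOX day-20 replicates were far apart at 2.52 and 0.788 CPM. MIR4453HG fell by 2.36, MIR600HG by 1.32 and MIR210HG by 1.28.

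Whether the DOX difference itself changed from day 12 to day 20 was tested directly, and 6 members passed: 3 snoRNA hosts and 2 microRNA hosts moved up and 1 microRNA host moved down, against 5.62% of all genes higher and 3.34% lower. SNHG21 changed by 3.87 (adjusted p = 0.0047, SE 0.80), MIR34AHG by 3.33 (adjusted p = 0.0045, SE 0.68), MIR17HG by 1.44 (adjusted p = 0.031, SE 0.40), SNHG11 by 1.28 (adjusted p = 0.0058, SE 0.27) and EPB41L4A-AS1 by 0.63 (adjusted p = 0.044, SE 0.19). AC105339.2, which overlaps SNHG21 on the same strand, changed by -3.75 (adjusted p = 0.090). MIR210HG changed by -3.35 (adjusted p = 1.2e-05, SE 0.37), since on day 12 it was at 5.62 and 5.80 CPM in UT and 6.40 and 5.71 in DOX and by day 20 the arms were 24.9 and 23.1 against 1.77 and 3.26. MIR17HG lost this call in 6 fits that left out 1 library. MIR223HG, already lower on day 12, changed by -0.50 and was not called (adjusted p = 0.064).

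Genes that act on the products were counted from lists chosen by name. In the averaged comparison, 29.8% of all genes were called higher and 23.0% lower, the shares against which the lists are read. Of 9 core proteins of snoRNA particles, 6 rose and 1 fell in DOX averaged over days (median 0.29), with GAR1 at 0.67, NHP2 at 0.53 and FBL, the methyltransferase, at 0.52, and NOP58, the most abundant at 331 CPM, at -0.30. Of 10 assembly factors, 9 rose, with RUVBL1 at 0.95 and NOLC1 at 0.91, and PIH1D1 fell by 0.17. In the UT course 9 of these 10 fell and 1 rose, against 34.2% of all genes lower and 28.1% higher. With library sizes alone all 9 core proteins and all 10 assembly factors were higher in DOX.

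Of 37 protein-coding snoRNA hosts, 29 rose and 0 fell in DOX, with a median of 0.35. IPO7 stood at 0.92, PRPF39 at 0.85 and RPS2, the most abundant at 1879 CPM, at 0.33. Of 82 tested cytosolic ribosomal proteins, 58 rose and 0 fell (median 0.29), although with DESeq2 size factors 3 fell. In this average noncoding snoRNA hosts thus had a median (0.26) close to that of protein-coding ones. Of 374 tested LINC genes, unrelated long noncoding RNAs, 63 rose and 77 fell with a median of 0.01. By day, from 12 to 20, medians were 0.44, -0.07, 0.23, 0.37 and 0.59 for noncoding hosts. Those of protein-coding hosts were 0.38, 0.26, 0.32, 0.45 and 0.38. The 2 kinds of snoRNA host parted over time, with medians of 0.28 and 0.01 in the UT course and 0.73 and -0.03 in the DOX course.

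Of 14 proteins that make or use microRNAs, 6 rose and 5 fell (median 0.05), against 29.8% and 23.0% of all genes. RAN rose by 0.70 and its partner in nuclear export XPO5 by 0.59, whereas TNRC6C and TNRC6A, which silence messages together with Argonaute, were at -0.77 and -0.63. With library sizes alone 10 rose and 1 fell. Of 10 nonsense-mediated decay factors, 3 rose and 3 fell (median 0.13), which is near those shares. SMG8 was at 0.65 and the kinase SMG1 at 0.48, while UPF3B and UPF2, both abundant, were at -0.93 and -0.83.

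The products themselves were hardly seen. Of 512 rows for snoRNA genes 351 were at 0 in every library and 19 were tested, and of 1803 rows for microRNA genes 1680 were at 0 and 1 was tested. None of these 20 was called in the averaged comparison. Among the hosts, SNHG27 and 31 microRNA hosts did not pass the filter, and 13 microRNA hosts were at 0 in all libraries. Those left out included MIR302CHG, MIR122HG, MIR137HG, MIR205HG and MIR200CHG, hosts of microRNAs known from pluripotent cells, liver, brain and epithelia. The best covered of them, MIR497HG, had 93 counts over 17 libraries and at most 0.684 CPM. A call that is absent for such rows says nothing about the gene at this depth.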

How the data were processed

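The deposited table holds expected counts per gene and library, estimated by the authors and not normalised, of which 88.3% were whole numbers. The submitters' processing notes name Trim Galore 0.6.5, STAR, Salmon and the build hg38; the annotation, strand setting and versions of STAR and Salmon are not given in the sources used here. All 22 columns were used. Counts were rounded, genes were kept by filterByExpr (minimum count 10), and libraries were scaled by TMM. One edgeR 4.0.16 quasi-likelihood fit (R 4.3.3) with 1 coefficient per group gave every comparison, with 11 residual degrees of freedom and Benjamini-Hochberg adjustment over all 20115 tested genes; called means an adjusted p under 0.05. CPM values are TMM-scaled, and SE is that of the log2 fold change.

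The members and gene lists were chosen with earlier results of these data known. Named with values were MYC, the 6 most abundant members of each kind, the 6 highest and 6 lowest called in the averaged comparison, 4 and 4 in the courses and the change, 1 and 1 on single days, and hosts known from haematopoiesis or MYC; from the other lists, 2 called genes each way and the most abundant one. SNHG22, SNHG32, EPB41L4A-AS1, MIR4458HG, SNHG20, MIRLET7A1HG, MIR181A2HG and members listed only to complete a small count were named after their values were seen.

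Where a group held 1 to 3 counts, the ratio has an exact 95% counting interval. Positions came from GENCODE 29 on GRCh38, microRNAs and promoters from RefSeq (88 promoter windows of 75 members). The alternatives were DESeq2 1.42.0, its size factors, library sizes alone, limma-voom (limma 3.58.1), other filters, other sets of libraries or days, removal of mitochondrial genes and a replicate block. Only the edgeR fit was tested on simulated counts, for the averaged and day-16 comparisons. Those counts had a common dispersion for all genes and no change between days, unlike the data. Figures were drawn with Python 3.11.15, pandas 2.3.3 and matplotlib 3.10.9.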

Additional observations from a re-analysis of the deposited data

Results flagged for a closer look

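The DOX against UT difference changed between day 12 and day 20 in 6 members by a test of that change itself, 5 up and 1 down of 62 tested, a share near that of all genes (5.62% up and 3.34% down). On the log2 scale the change was 3.87 for SNHG21, 3.33 for MIR34AHG, 1.44 for MIR17HG, 1.28 for SNHG11, 0.63 for EPB41L4A-AS1 and -3.35 for MIR210HG (adjusted p = 0.0047, 0.0045, 0.031, 0.0058, 0.044 and 1.2e-05). For SNHG21 and MIR17HG the day-20 UT libraries were the low ones, at 0.198 and 0 CPM and at 1.19 and 1.54 CPM, and for MIR210HG they were the highest of the series. AC105339.2, on the same strand as SNHG21 and overlapping it, changed by -3.75 (adjusted p = 0.090). Mitochondrial shares also moved between these days, from 10.6% to 72.7% in UT and from 11.3% to 57.0% in DOX, and their part in these changes was not tested.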

How the results depend on the processing

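Of 634 recomputed counts of members 576 stayed within 1.5 times the reported count, and of 2048 recomputed values of named members 1943 kept their direction and call, 100 lost the call, 2 gained it and 3 turned. Removing mitochondrial genes left the averaged counts at 25 higher and 18 lower. For the averaged comparison, a 2-fold threshold left 3 higher and 9 lower, and days 12 and 14 alone left 10 and 9, with MIR17HG at -0.14 and MIR34AHG at -0.28. Library sizes alone gave 7 lower on average, 0 higher on day 12, 29 higher and 3 lower on day 16, 30 and 2 on day 18, 2 lower on day 20, 6 higher and 36 lower in the UT course, 10 and 22 in the DOX course, and 34 higher for the change. It put MIR155HG at 0.022, the microRNA host medians at 0.26 on day 16, 0.64 on day 18, -0.72 in the UT course and -0.21 in the DOX course, and the snoRNA host medians at -1.90 and -0.45 in these courses. Day 12 gave 10 higher and 6 lower with DESeq2, 3 higher with DESeq2 size factors, 9 and 5 with limma-voom, and 18 and 7 with only the groups compared. The last also gave 8 higher on day 18, 7 higher and 2 lower on day 20, and 2 higher for the change. limma-voom gave 7 higher on day 14. The change had 3 higher with limma-voom or without a filter, 2 lower with DESeq2 size factors or a floor of 1 CPM in at least 4 libraries, and 3 lower with DESeq2. Replicate numbers did not pair the libraries (median correlation of deviations 0.038 over 55 pairs of groups, above 0.1 in 5), and the replicate block gave 10 higher on day 12 and 3 lower for the change. Leaving out 1 library at a time gave 22 to 26 higher and 15 to 19 lower on average, 0 to 8 and 0 to 1 on day 12, 3 to 5 and 7 to 9 on day 14, 7 to 11 and 9 to 15 on day 16, 11 to 17 and 3 to 9 on day 18, 14 to 25 and 3 to 6 on day 20, 24 to 31 and 9 to 11 in the UT course, 29 to 33 and 8 to 9 in the DOX course, 3 to 7 and 1 to 1 for the change, and 44 to 49 and 39 to 46 for any difference between days in UT and DOX. A left-out library leaves its partner alone, which was then assumed to vary like the other groups. Where counts moved, the cause was not tested. Single days had 2 libraries an arm, and members with a few counts are limited by depth.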
